A study of Rattus norvegicus with 3 samples.

Results

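Of 6704 Seh1 peaks called in immature oligodendrocytes (iOL), 888 lay between neighbouring Seh1 peaks of oligodendrocyte progenitor cells (OPC) that carried the same gene, without overlapping an OPC peak by as much as 1 bp. These 888 peaks made up 13.3% of the iOL list (95% exact binomial interval 12.4 to 14.1%), and 585 genes held them. The peaks were chosen by their called positions in both lists: the nearest OPC peak on the left and the nearest on the right, by peak centre, had to name the same gene in the annotation of the OPC peaks. A further 51 iOL peaks met that condition but overlapped an OPC peak and were left out. Of the other iOL peaks, 5600 lay between OPC peaks of different genes without overlap, 106 lay there with overlap, and 59 had no OPC peak on at least 1 side. The 5600 and the 106 include any iOL peak next to an OPC peak without annotation. The positions that selected the peaks, and all counts that follow from them, are given as a description and were not tested.

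Both stages came from Sprague Dawley rat forebrain at postnatal day 1 to 2. The iOL had received triiodothyronine (T3) at 60 nM for 1 day after PDGF-AA, bFGF and NT3 were withdrawn, while the OPC were kept in PDGF-AA, CNTF, bFGF and NT3. In both, chromatin was fixed with 1% formaldehyde for 10 min and precipitated with an antibody to Seh1. Each stage had 1 Seh1 library, and an IgG library of iOL was not analysed here. There was thus no replicate error, and every difference between the lists is a difference between 2 libraries. Depth is unknown, since neither the files nor the labels give read numbers, and all intervals below cover counting error only. The iOL list held positions of 209 bp peaks without scores, and the OPC list held 9117 peaks of 205 bp, of which 9084 were annotated on build rn6. Peak lists hold no RNA levels, so the identity of the cells could not be checked against marker genes.

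Seh1 is a subunit of the Y-shaped scaffold of the nuclear pore and also belongs to a complex that controls amino acid signalling to mTORC1. Several nucleoporins are known to contact chromatin at regulatory sequences as well as at the pore. OPC leave the cell cycle and become oligodendrocytes when mitogens are withdrawn and T3 is added; T3 acts through nuclear receptors that recruit corepressors without the hormone and coactivators with it. The series title names Olig2, a bHLH transcription factor needed for oligodendrocytes to form, and Brd7, a subunit of the PBAF chromatin remodelling complex.

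The iOL peaks carried no annotation of their own. They were placed through the OPC annotation, because the positions nearest to a given transcription start site (TSS) form an unbroken stretch. When each OPC peak that lay between peaks of the same gene was placed in the same way, 1273 of 1274 carried that gene (99.9%, 95% exact binomial interval 99.6 to 100.0%). Where a TSS could be inferred from the flanking peaks, the inferred distance equalled the listed distance, within 1 bp, in 1253 of 1253 peaks. Both results follow largely from the rule that the annotation names the nearest TSS. They check the procedure and are no independent evidence on the iOL peaks. For 871 of the 888 iOL peaks the flanking OPC peaks agreed on the TSS, and for 17 they did not, so that no distance is given for those. A positive distance means downstream of the TSS, on the transcribed side.

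The iOL peaks closest to a start site stood at Grk2, Cyp26b1, Psd2, Pou3f1, Gpr157 and Apoa1, all within 544 bp. The Grk2 peak (chr1:219544131-219544339, rn6) was centred 94 bp downstream of the TSS of Grk2, a kinase that desensitises G-protein-coupled receptors. It reached from -10 to 198 bp, and an OPC peak in intron 1 at 414 bp (score 6.38) began 113 bp beyond it. The Cyp26b1 peak (chr4:116278777-116278985, rn6) was centred at -266 bp and reached from -370 to -162 bp; Cyp26b1 degrades retinoic acid. The OPC peak next to it lay in intron 1 at 602 bp (score 7.66). Their promoters are printed as the sequence context of the 2 iOL peaks nearest to a TSS; they hold only the first bases of the Grk2 peak and part of the Cyp26b1 peak, so the letter counts below describe the promoters and not the peaks. They are the 250 bases before the RefSeq start on build GRCr8, 5′ to 3′ on the strand of the gene, with CG dinucleotides in capitals. The Grk2 stretch is chr1:211031014-211031263 and the Cyp26b1 stretch chr4:118616177-118616426, both on the minus strand. The letters come from GRCr8 and the distances from rn6, so the place of the peaks on them is approximate where the RefSeq starts differ.
Grk2: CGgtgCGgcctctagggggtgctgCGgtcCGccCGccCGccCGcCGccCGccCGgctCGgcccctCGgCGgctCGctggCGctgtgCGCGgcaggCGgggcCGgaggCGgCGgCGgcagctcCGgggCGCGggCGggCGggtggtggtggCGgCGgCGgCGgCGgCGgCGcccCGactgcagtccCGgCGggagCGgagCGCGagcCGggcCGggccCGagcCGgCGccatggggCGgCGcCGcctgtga
Cyp26b1: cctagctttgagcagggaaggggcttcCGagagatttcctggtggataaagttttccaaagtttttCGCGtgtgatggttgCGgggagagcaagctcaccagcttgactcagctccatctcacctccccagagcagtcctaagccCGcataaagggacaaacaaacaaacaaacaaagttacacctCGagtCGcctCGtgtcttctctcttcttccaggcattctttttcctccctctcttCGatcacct
The Grk2 promoter held 48 CG dinucleotides and 86.8% G or C, and the Cyp26b1 promoter 9 and 50.4%. Across 33469 rat promoters of the same length the medians were 5 CG dinucleotides (quartiles 2 and 15) and 51.2%. Searched on both strands, the letters GGGCGG, a core bound by Sp and Klf factors, occurred 8 times in the Grk2 promoter and 0 times in that of Cyp26b1, and 30.5% of all promoters held them. The E-box letters CANNTG, of the kind Olig2 binds, occurred in neither, against 65.5% of all promoters. The thyroid hormone receptor half-site letters AGGTCA occurred in neither, against 14.1%. A missing match says only that these letters are not in these 250 bases.

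At Psd2, which encodes an exchange factor for the GTPase Arf6, the iOL peak lay at -300 bp, between OPC peaks at -31106 and 62269 bp. At Pou3f1, a POU homeobox gene expressed in glia and neurons, it lay at 431 bp, between an OPC peak in the promoter (-805 bp, score 10.2) and another in the 3′ UTR (1961 bp, score 8.94). The iOL peaks of Gpr157, an orphan G-protein-coupled receptor, and of Apoa1, the main protein of high-density lipoprotein, lay at 499 and 544 bp. At Phf2, a histone demethylase gene, it lay at -708 bp. At Nectin1 and Trerf1, which encode an adhesion molecule and a transcription regulator, the distances were 1031 and 1308 bp. The framing OPC peaks were not always close: at Psd2 and Nectin1 the nearest OPC peak edge was 30599 and 65846 bp away.

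Such positions were the exception. The median distance to the TSS was 114.5 kb (quartiles 38.5 and 279.6 kb, longest 2685 kb, at the protocadherin gene Pcdh19). Within 1 kb of the TSS lay 8 iOL peaks, within 10 kb 78, within 50 kb 257 and within 100 kb 406 of 871 (46.6%, 95% exact binomial interval 43.26 to 49.99%). A further 100 lay more than 500 kb away, 44 of them more than 1000 kb. Downstream of the TSS lay 475 (54.5%, 51.2 to 57.9%) and upstream 396, and 290 lay in a gap that itself spanned the TSS.

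Since more of the surveyed sequence lies far from a TSS than near it, the counts were divided by the length of sequence between neighbouring OPC peaks of the same gene at each distance. Density was highest from 1 to 5 kb downstream and lowest beyond 500 kb on either side. These densities were not matched for the distance between the neighbouring OPC peaks. With that distance density fell as well, from 6.90 per Mb up to 10 kb to 0.816 per Mb above 1000 kb. From 1 to 5 kb downstream there were 26 iOL peaks, or 7.78 per Mb (exact Poisson 95% interval 5.09 to 11.4), against 9 upstream, or 2.88 per Mb (1.32 to 5.46), so that the intervals overlapped slightly. From 5 to 10 kb density was 4.39 per Mb downstream (2.60 to 6.94) and 4.45 upstream (2.59 to 7.12). Beyond 500 kb density was 0.875 per Mb downstream and 0.846 upstream. Over all distances it was 2.33 per Mb downstream (2.12 to 2.55) and 2.06 upstream (1.86 to 2.27).

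**Figure D1:**
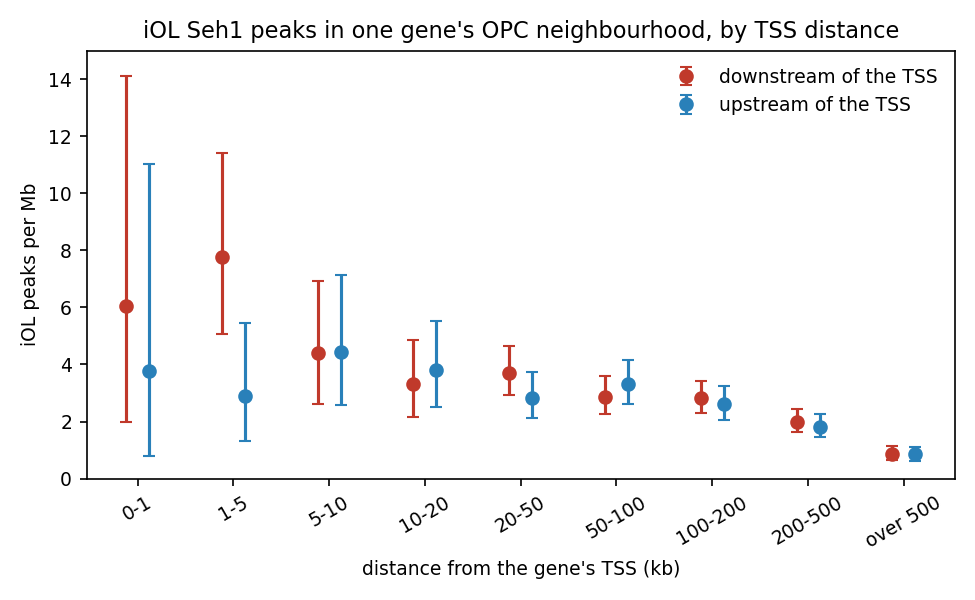
Density of the placed iOL peaks (peaks per Mb, vertical axis) by distance from the inferred TSS (kb, horizontal axis), downstream and upstream, with exact Poisson 95% intervals that cover counting error only. The downstream value at 1 to 5 kb is 7.78 per Mb and the upstream value 2.88 per Mb, and both sides fall below 1 per Mb beyond 500 kb.

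The iOL peaks lay far from the OPC peaks that framed them as well. The median distance between the edge of an iOL peak and that of the nearest OPC peak was 29.2 kb (quartiles 9.84 and 73.8 kb, longest 1025 kb). In 37 cases it was within 1 kb and in 125 within 5 kb. The stretch between the 2 framing OPC peaks, called the gap here, had a median of 164.6 kb over the 888 iOL peaks and ran from 1293 bp at C3 to 3521 kb. Close to the limit of the choice, the iOL peak of Asb18 stood 6 bp from an OPC peak, that of Utp18 8 bp, that of the microRNA gene Mir2985 27 bp, that of the palmitoyltransferase gene Zdhhc14 44 bp and that of the AP-1 subunit gene Fosl1 52 bp. Just outside it, the iOL peak of the ubiquitin ligase scaffold gene Cul1 overlapped an OPC peak by 7 bp, that of the matrix link protein gene Hapln1 by 22 bp and that of Fam228a by 48 bp. The next 5 inside, at Ehhadh, Grk2, Flcn, Tlk1 and Rbl2, stood 107 to 157 bp away, and the next 7 outside, at Fam83f, Tshz3, Dsel, Ntrk3, Pabpc4l, Necab1 and Cdh3, overlapped by 53 to 106 bp. All of these distances are shorter than a peak, and whether such neighbours are shifted calls of a shared site was not tested.

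The shortest gaps put a peak called in iOL within a few kb of OPC peaks on both sides. In C3, the central complement gene, the iOL peak lay between OPC peaks in exon 11 (score 7.02) and intron 13 (score 14.0), 223 bp from the nearer. In Actb, the beta-actin gene, it lay 2024 bp from the TSS, between OPC peaks in exon 3 and at the end of the transcript, in a gap of 1806 bp. The gap of Pou3f1 measured 2766 bp. That of Washc1, a subunit of an endosomal actin regulator, measured 2881 bp within intron 4. Flcn, a regulator of mTORC1 at the lysosome, had a gap of 3036 bp, Smptb of 3079 bp and Map1lc3b, an autophagosome protein gene, of 4206 bp. The iOL peak nearest to the TSS of the actin bundling gene Fscn1 lay in a gap of 4140 bp inside the neighbouring transcript Rnf216. Gnal, an olfactory G-protein subunit gene, and Chst12, a chondroitin sulfotransferase gene, followed with 7794 and 8430 bp.

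Of 3274 gaps between neighbouring OPC peaks of the same gene, 679 held at least 1 of these iOL peaks (20.7%). In 516 gaps there was 1, in 128 there were 2 and in 35 there were 3 or more, with a maximum of 7. Over 403.9 Mb of such gaps the density was 2.20 iOL peaks per Mb (exact Poisson 95% interval 2.06 to 2.35). Over 2376 Mb of gaps between OPC peaks of different genes, counted with any gap next to an OPC peak without annotation, it was 2.36 per Mb (2.30 to 2.42). The 2 kinds of gap differ in length, with medians of 47.9 and 203.7 kb. In same-gene gaps density fell from each length bin to the next. In gaps between different genes it fell from 30 kb upwards. Below that it was 13.5 per Mb up to 10 kb, from 5 peaks, and 5.325 per Mb (3.67 to 7.48) at 10 to 30 kb. At matched length, gaps of the same gene held fewer iOL peaks per Mb in 4 bins: 3.94 (3.45 to 4.48) against 6.31 (5.77 to 6.88) at 30 to 100 kb, and 2.69 (2.40 to 3.00) against 4.40 (4.19 to 4.62) at 100 to 300 kb. At 300 to 1000 kb the densities were 1.37 (1.18 to 1.57) and 2.50 (2.40 to 2.61), and above 1000 kb 0.816 (0.613 to 1.07) and 1.22 (1.15 to 1.28). Below 30 kb the intervals overlapped. No test was run on this difference, since the gaps were defined by the same peak lists.

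**Figure D2:**
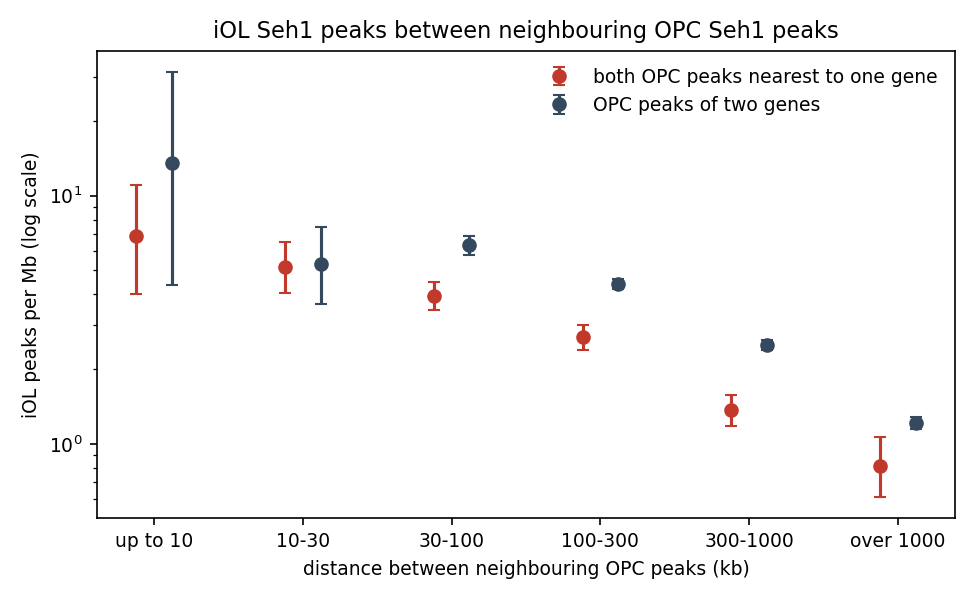
Density of iOL peaks without OPC overlap (peaks per Mb, vertical axis, log scale) in gaps between neighbouring OPC peaks of the same gene and of different genes, by gap length (kb, horizontal axis), with exact Poisson 95% intervals. From 30 kb upwards the same-gene points, such as 2.69 per Mb at 100 to 300 kb, sit below the points for different genes, such as 4.40 per Mb. Gaps next to an OPC peak without annotation are counted with those of different genes.

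The framing OPC peaks give the annotation around the iOL peaks. Both were intergenic for 477 iOL peaks (53.7%, 95% exact binomial interval 50.4 to 57.0%), and 1 of them was intergenic for 259 (29.2%, 26.2 to 32.3%). For 120 iOL peaks both lay in the same transcript (13.5%, 11.3 to 15.9%), which puts the iOL peak inside that transcript too, and for 25 of these both lay in the same intron (2.82%, 1.83 to 4.13%). Densities were 4.01 per Mb in gaps within an intron (2.60 to 5.92), 3.37 in other gaps within a transcript (2.73 to 4.12) and 1.87 in gaps with both ends intergenic (1.71 to 2.05). They were 3.70 in gaps between different transcripts (2.53 to 5.22) and 2.44 in gaps with 1 end intergenic (2.15 to 2.76). Median gap lengths over these 5 kinds, in the same order, were 14.4, 24.4, 59.0, 47.7 and 62.8 kb. The 1293 framing OPC peaks had a median score of 7.66, as had the 7791 other annotated OPC peaks. Of the framing peaks 1.86% were in promoters and 2.63% in exons, against 4.38% and 7.50% of the others. The framing peaks also lay farther from a TSS, at a median of 95.95 kb against 29.78 kb, and the shares were not matched for this distance. The others include OPC peaks without a neighbour of the same gene, which could not frame an iOL peak.

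Peaks placed inside a single intron can be located in gene structure. Gnao1, the gene of a G-protein subunit abundant in neurons, had 2 iOL peaks in intron 2, at 7.98 and 31.5 kb from its TSS. Nkd1, an inhibitor of Wnt signalling, had 2 in intron 4, at 6.17 and 19.3 kb, and Prickle2, a planar polarity gene, had 2 in intron 1, at 31.5 and 170.4 kb. Single iOL peaks lay in intron 1 of Nrg1, a ligand of ErbB receptors, in intron 1 of Tead1, a partner of the Hippo pathway, in intron 1 of Hivep2, in intron 2 of the phosphatase gene Ptprg, in intron 3 of the potassium channel gene Kcnj6 and in intron 7 of Zfp423. Of the 120 peaks inside a transcript, 81 lay in that of the gene with the nearest TSS and 39 in that of another gene, so the nearest TSS and the gene body differed for the latter. Tenm2, a teneurin, held 3 iOL peaks whose nearest TSS was that of Rars. The cadherin gene Cdh13 held 2 assigned to Hsbp1, and Magi2, a synaptic scaffold gene, held 2 assigned to Phtf2.

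Counted by transcript, Camta1 stood first of 88 hosts, with 8 iOL peaks. Camta1 encodes a calmodulin-binding transcription activator. Of the 8, 4 lay at 82.6, 86.7, 204.0 and 260.4 kb downstream of its own TSS. The other 4 lay farther along the same transcript and had the TSS of the vesicle fusion gene Vamp3 as their nearest, at -272.7, -248.8, -213.3 and -99.6 kb. The 2 in intron 3 of 34 (chr5:168756750-168756958 and chr5:168813217-168813425) were framed by OPC peaks 14.4 and 55.5 kb apart.

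The 585 genes with such an iOL peak were 29.3% of the 1999 genes that had at least 2 neighbouring OPC peaks, and 5796 genes had an OPC peak at all. A single iOL peak was held by 397 genes, 2 by 117, 3 by 46, 4 by 14, 5 by 5, 6 by 4 and 7 by 2. In 21 genes there were more of these iOL peaks than OPC peaks, and in 60 there were as many. Genes with such a peak had longer neighbourhoods, measured as the summed length of the gaps between their neighbouring OPC peaks, with a median of 208.1 kb in the 585 genes and 48.5 kb in the other 1414. In 5 groups of 399 or 400 genes by rising neighbourhood length, 5.00, 13.8, 27.3, 40.0 and 60.3% of genes held a peak, while density ran the other way, from 6.12 per Mb in the group with the shortest neighbourhoods to 1.55 per Mb in that with the longest. Over the 1999 genes Spearman's rho between count and length was 0.453, which describes genes that share 1 pair of libraries.

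The 2 genes with 7 iOL peaks differed in how these lay. Cbr4, a reductase of mitochondrial fatty acid synthesis, had 5 OPC peaks over 1052 kb, and its iOL peaks stood at 43.5, 299.9, 619.3, 629.2, 632.0, 662.5 and 668.2 kb. Of these, 5 gathered between 619.3 and 668.2 kb, around the OPC peaks at 630.4, 652.5 and 659.2 kb. Erap1, an aminopeptidase that trims antigen peptides, had all 7 in a single intergenic gap of 848.5 kb near the start of chromosome 2. Its iOL peaks stood at -936.8, -446.2, -430.2, -429.7, -365.6, -198.0 and -193.7 kb, and those at -430.2 and -429.7 kb were centred 567 bp apart, the closest pair of all. Over the 209 pairs of neighbouring iOL peaks in a shared gap the median spacing was 59.9 kb, and 12 pairs lay within 5 kb.

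Most other genes with many iOL peaks had long intergenic surroundings. Pabpc4l, of the poly(A)-binding protein family, had 6 over 3797 kb, and LOC304725, a contactin-associated protein-like gene, had 6 over 3603 kb. Pcdh9, a protocadherin, had 6 in a single gap of 3074 kb, from -190.6 to 2669 kb of its TSS. The pheromone receptor genes Vom1r21 and Vom2r57 had 6 over 1021 kb and 5 over 1287 kb; both belong to large families of similar genes, so their positions are uncertain where reads match several copies. Kcnk9, a two-pore potassium channel gene, had 5 over 1793 kb and Stx19, a syntaxin gene, 5 over 1028 kb. Galc, the lysosomal enzyme that breaks down the myelin lipid galactosylceramide, had 5 over 1313 kb, at 51.4, 256.5, 263.7, 451.6 and 682.9 kb. Wbscr17, a glycosyltransferase gene, had 5 over 654.2 kb, Klhl25, a ubiquitin ligase adaptor gene, 4 over 1455 kb, and Bcl11a 4 over 920.1 kb. Camta1 and Vamp3, with 4 each, had shorter neighbourhoods of 267.0 and 375.9 kb. For all these peaks the named gene is the one with the nearest TSS; contact with its promoter was not measured.

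**Figure D3:**
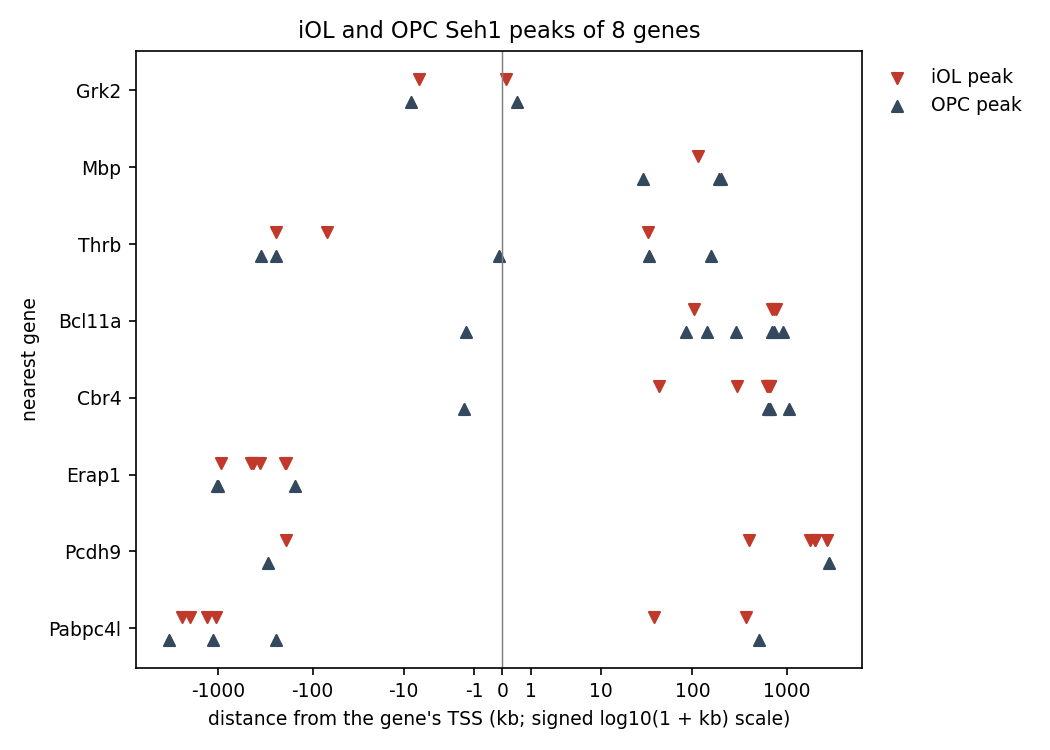
Positions of iOL peaks (upper marks) and OPC peaks (lower marks) around the inferred TSS of 8 genes, Grk2, Mbp, Thrb, Bcl11a, Cbr4, Erap1, Pcdh9 and Pabpc4l, by distance from the TSS (kb, horizontal axis, on a signed log10 scale after adding 1 kb, so that spacing far from the TSS looks compressed). The 7 iOL peaks of Erap1 and the 6 of Pcdh9 each stand between a single pair of OPC peaks, whereas 5 of the 7 of Cbr4 gather around the OPC peaks at 630.4, 652.5 and 659.2 kb.

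Genes were then read by function, in 23 lists with 767 distinct genes, of which 84 held 137 of the iOL peaks. The lists do not hold every gene of a family or pathway, so each share describes its list only. Each count is given over the genes of the list with neighbouring OPC peaks and is to be read against 29.3% of all such genes and against the length of the neighbourhoods, whose median over all 1999 genes was 76.6 kb. No count was tested.

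Among genes for the receptors, cofactors, transport and conversion of thyroid hormone, 3 of 4 held an iOL peak, in neighbourhoods with a median of 113.2 kb. Thrb, the beta receptor for T3, had iOL peaks at -242.0, -70.6 and 32.9 kb. An OPC peak sat on its promoter at -87 bp (score 6.38), and the iOL peak at 32.9 kb had an OPC peak in intron 1 next to it at 34.4 kb. Ncoa2, a coactivator of nuclear receptors, had an iOL peak at 70.2 kb, 360 bp from an OPC peak in exon 16 (score 8.3). Density over this list was 7.58 per Mb (exact Poisson 95% interval 2.78 to 16.5), from 6 peaks. Genes with neighbourhoods of 111.1 to 273.1 kb had 3.25 per Mb (2.84 to 3.70) and those of 50.7 to 111.1 kb 4.38 per Mb (3.68 to 5.18), both inside the interval of the list.

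The oligodendrocyte lists had small counts on both sides of 29.3%. Among the listed myelin and mature oligodendrocyte genes 1 of 6 held an iOL peak. Galc, described above with 5, was not on this list. The 1 gene was Mbp, which encodes myelin basic protein. Its iOL peak (chr18:79520086-79520294) lay at 113.8 kb, between OPC peaks in the last intron at 29.2 kb and between genes at 190.5 kb, both with score 7.02. Among lineage transcription factors 2 of 12 did, Sox8 with a peak at -10.5 kb and Bcl11a. Among OPC genes and receptors 2 of 9 did: Fgfr1, a receptor for fibroblast growth factors, with a peak at -18.4 kb, and Sox6, which helps keep OPC immature, with peaks at 746.8 and 837.9 kb. Among inhibitors of differentiation 4 of 8 did, Sox6, Nrg1 and the Notch target genes Hes1 (-28.3 kb) and Hey2 (-53.4 and -1.79 kb). Their neighbourhoods had a median of 268.5 kb, against 101.4 kb for the myelin list. Densities were 1.71 per Mb (0.626 to 3.71) for the inhibitors, from 6 peaks, and 1.46 per Mb (0.037 to 8.15) for the myelin list, from 1 peak.

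Signalling lists had shares above 29.3%, a value that is not matched for neighbourhood length. Of all genes, 27.3% held a peak at neighbourhoods of 50.7 to 111.1 kb, 40.0% at 111.1 to 273.1 kb and 60.3% at 273.1 to 4476 kb. On the Wnt pathway list 7 of 13 genes held an iOL peak, in neighbourhoods with a median of 100.2 kb and at 4.66 per Mb (2.23 to 8.57). These were the ligands Wnt3 (66.4 kb), Wnt4 (-28.9 kb), Wnt5a (60.0, 117.4 and 126.3 kb) and Wnt7b (21.5 kb), the receptor Fzd1 (-48.5 kb), the feedback inhibitor Axin2 (-23.5 and 8.96 kb) and the heparan sulfatase Sulf2 (-244.8 kb). Nkd1, the inhibitor of Wnt signalling named above, held 3 iOL peaks and was not on the Wnt list. On the list of BMP, TGF-beta and Notch pathways 7 of 11 genes held an iOL peak. Their list had a median neighbourhood of 177.5 kb and 3.18 per Mb (1.59 to 5.69). The ligands Bmp2 and Bmp7 had a peak each, at -39.2 and 114.5 kb, and the receptor Tgfbr2 had 1 at 2.61 kb. The transducer Smad2 had 3, without an agreed TSS, and the inhibitor Smad6 had 2, at 72.8 and 88.6 kb; Hes1 and Hey2 complete the list. On the axon guidance list 8 of 14 did, with a median of 306.6 kb and 1.85 per Mb (0.955 to 3.23). These were the receptors Robo1, Nrp1, Unc5d and Ephb1 and the ligands Slit1, Sema3f, Efna5 and Efnb2. Ephb3, an ephrin receptor gene with 4 iOL peaks, was not on this list. The Sema3f peak lay nearest to a TSS, at 2.63 kb.

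Transcription and chromatin genes followed. Of the listed Sox, Fox and Klf genes 8 of 14 held an iOL peak, in neighbourhoods with a median of 284.3 kb and at 3.70 per Mb (2.07 to 6.10). Among all genes with neighbourhoods of 273.1 to 4476 kb, 60.3% held a peak, at 1.55 per Mb (1.41 to 1.70). The median of this list lay near the lower end of that range. Among genes of 111.1 to 273.1 kb, 40.0% held a peak. Their density of 3.25 per Mb (2.84 to 3.70) lay inside the interval of the Sox, Fox and Klf list. Foxk1, a repressor of autophagy genes, had 4, from -411.0 to -151.8 kb, and Klf4 had 3, from -288.6 to -128.2 kb. Klf15 had 2, at -5.28 and 90.1 kb, Sox6 had 2, and Sox8, Foxo1, Foxp1 and Klf5 had 1 each. Foxe1 and Foxe3, with 2 each, and Foxc2 and Foxi3, with 1 each, were not on this list. Among homeobox and T-box genes, Shox2, with 3, Dbx1 and Hmx1, with 2 each, and T, Pax7, Meox2 and Drgx, with 1 each, were not listed either. Of those listed 10 of 28 held an iOL peak, with a median of 108.7 kb. Tbx3 had 3, Tbx5, Pax2 and Zfhx4 2 each, and Irx3, Emx2, Barhl2, Tshz3, Tbx2 and Pou3f1 1 each; besides Pou3f1, the nearest were Pax2 at 3.43 kb and Barhl2 at 5.89 kb. Genes of the BAF and PBAF complexes were read together, and Brd7 belongs to PBAF. Of these genes 3 of 4 held an iOL peak, with a median of 225.0 kb and 5.83 per Mb (2.52 to 11.5). Genes with neighbourhoods of 111.1 to 273.1 kb had 3.25 per Mb (2.84 to 3.70), inside the interval of the list. Dpf3, a subunit that reads acetylated histones, had 2 within its transcript at 82.8 and 167.6 kb. Bcl11a and Bcl11b, zinc finger proteins found with the BAF complex, had 4 and 2. The peaks of Bcl11a stood at 103.0, 703.0, 739.0 and 764.7 kb. Both listed nucleoporin genes with neighbouring OPC peaks held iOL peaks. Ndc1, the membrane anchor of the pore, had 1 at 127.0 kb, and Nup58, of the central channel, 2 at 178.1 and 236.2 kb.

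Adhesion genes had long neighbourhoods. LOC304725, with 6, and Cntnap5c, with 3, were not on the list of long synaptic adhesion genes. Of those listed 13 of 21 held a peak, with a median neighbourhood of 663.3 kb and 1.06 per Mb (0.640 to 1.66). Sdk2 had 3, Cntn5, Tenm3, Flrt2 and Cadm1 had 2 each, and genes with 1 each included Lrrtm2, Cntnap4, Cntnap5b, Cntn3, Dscam, Adgrl2 and Il1rapl1. Of the listed cadherins and protocadherins 4 of 12 did, at 0.613 per Mb (0.294 to 1.13) and a median of 896.3 kb. Pcdh9 had 6, Pcdh7 had 2, and Cdh10 and Pcdh19 had 1 each. Cdh26, with 3, and Cdh5, with 1, were not on this list. Among the 400 genes with the longest neighbourhoods, 273.1 to 4476 kb, 60.3% of genes held a peak at 1.55 per Mb (1.41 to 1.70). Of the listed voltage-gated and potassium channels 7 of 14 did. Kcnk9 had 5, Kcnma1 and Kcnq1 had 2 each, and Cacna2d1, Cacna2d3, Kcnh8 and Kcnj6 had 1 each. Channel genes not on this list included Kcnv1, with 2, and Kcnk1, Kcnk10 and Cacna2d2, with 1 each. Of glutamate and GABA receptors 2 of 11 did, among them Grin3a with a peak at -453.0 kb.

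In the remaining lists counts were small. Cholesterol synthesis had 1 of 6, the squalene epoxidase gene Sqle at -188.7 kb, and the cell cycle 1 of 7, the kinase gene Cdk1 at -64.7 and 56.8 kb. Extracellular matrix and integrins had 2 of 6, Sulf2 and the glypican gene Gpc5, with peaks at 131.4, 471.4 and 1045 kb. Markers of other cell types the culture could hold gave 2 of 8 for astrocytes (Glul at 493.5 kb and Id3 at 36.0 kb), 2 of 3 for vessels (Cdh5 at -38.3 kb and Vwf at 44.7 kb), 0 of 3 for neurons and 0 of 1 for microglia. With 0 of 3 and 0 of 1 no share can be read.

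**Figure D4:**
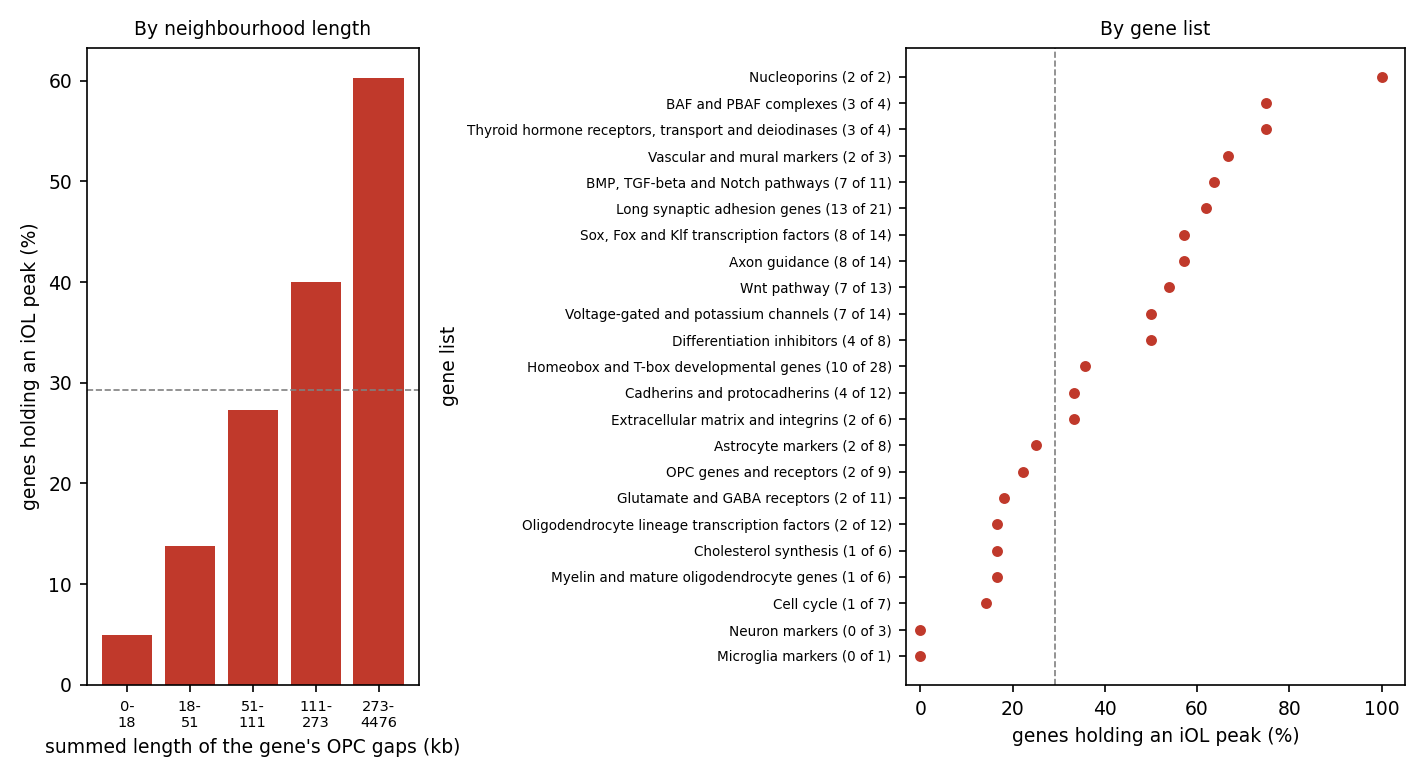
Share of genes with neighbouring OPC peaks that held an iOL peak between them (percent; vertical axis on the left, horizontal axis on the right), by neighbourhood length in 5 groups (left) and by gene list (right), with 29.3% of all 1999 genes as a dashed line. The share climbs from 5.00% at the shortest neighbourhoods to 60.3% at the longest, and the lists lie on both sides of the dashed line, from 0 of 3 neuron markers to 2 of 2 nucleoporins.

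Non-coding genes held 22 of the iOL peaks in 18 genes, and 13 of these were microRNA genes with 16 peaks. The mature sequences of 6 are given: those of the 5 whose iOL peaks lay inside a named host transcript, and that of Mir375, which had the nearest iOL peak outside of one. They are from RefSeq, build GRCr8, 5′ to 3′, with the seed (bases 2 to 8) in capitals.
miR-3075: uGUCUGGGagcagccaaggacaag
miR-375-3p: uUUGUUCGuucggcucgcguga
miR-346: uGUCUGCCugagugccugccucu
miR-153-3p: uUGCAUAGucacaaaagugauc
miR-6327: cGGACUGUagauccaucuc
miR-592: aUUGUGUCaauaugcgaugaugu
For Mir375 and Mir153 the 3p arm is shown. The 6 seeds differ. The iOL peak of Mir3075 lay 4.25 kb downstream of its start, inside the transcript of Zmiz1, a coactivator gene. That of Mir375, a microRNA best known from pancreatic islets, lay at -11.3 kb between genes. Mir346 had 2, at 22.5 and 66.9 kb, inside the transcript of the glutamate receptor gene Grid1. Mir153, whose microRNA is abundant in brain, had 2, at -66.6 and -263.4 kb, inside the transcript of the phosphatase gene Ptprn2. Mir6327 had 2, at -92.1 and -136.8 kb, both in intron 1 of the ion channel gene Asic2. Mir592 had 1, at 246.4 kb, inside the transcript of the glutamate receptor gene Grm8.

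Over chromosomes the density of these iOL peaks was highest on chromosome 12, with 57 peaks and 4.97 per Mb of same-gene gaps (3.77 to 6.44). On X there were 6 peaks and 0.552 per Mb (0.203 to 1.20). The densities of chromosomes were not matched for gap length. On chromosome 12 these iOL peaks included those of Actb, Fscn1, Foxk1, Tbx3 and Tbx5.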

How the data were processed

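The authors deposited a list of peak positions for each Seh1 library and 1 annotated table. Per the file headers the table was written by HOMER on rn6; it is recorded under iOL, but all 9084 of its intervals equal OPC intervals and 0 equal iOL intervals, so it was used for OPC. The submitters' processing notes list Bowtie2, HOMER, rn6 and hg18 without saying what each was used for. The score and the focus ratio, a fraction, are the authors' deposited values per OPC peak; the fraction was not used. How reads with several matches were treated is not given in the sources used here.

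Placement, gaps, TSS inference (tolerance 1 bp), exact binomial and exact Poisson intervals were computed with Python 3.11.15, pandas 2.3.3 and scipy 1.17.1, and tested on simulated data; figures used matplotlib 3.10.9. Gene symbols turned into dates, 3 among the placed peaks, were read by gene ID; 1986 of 1999 IDs matched RefSeq. The members and gene lists were chosen with earlier results of these data known. Named items were the 15 genes with most iOL peaks, the 10 nearest a TSS, in the shortest gaps and on each side of the overlap limit, and listed genes, some of which are not reported here; genes named by intron, host transcript, microRNA or chromosome were chosen after their values were seen. With 1 library per stage no test and no omission of a replicate was possible. Alternatives concerned overlap, edges, scores, repeats, flank number and gap length.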

Additional observations from a re-analysis of the deposited data

How the results depend on the processing

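The number of placed iOL peaks depended on the OPC peaks used to frame them. It was 360 in 230 genes with OPC peaks at or above the median score, 129 in 93 genes when 2 OPC peaks of the gene were asked for on each side, 480 in 327 genes without OPC peaks in annotated repeats and 319 in 265 genes with framing peaks at most 100 kb apart, against 888 in 585 genes. Fewer framing peaks or gaps make these numbers smaller by construction. Density moved to 3.50 per Mb without repeats and 4.26 per Mb at most 100 kb apart, against 2.20. The share inside a single intron moved to 4.17% at or above the median score and 6.27% at most 100 kb apart, against 2.82%. Keeping overlapping peaks gave 939 in 616 genes and asking for more than 1000 bp between edges 851 in 560. Nearest peaks by edge and matching by gene ID each gave 888 in 585. Asking the framing peaks to agree on 1 TSS, chosen after seeing the data, gave 871 in 575. No paired analysis was possible because each stage has 1 library and the result comes from no test. Unknown depth limits all counts, since more reads could add peaks to either list.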

Other observations

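Among genes with 4 such iOL peaks outside those named by number of peaks, Ephb3, an ephrin receptor gene, and Ptpn1, a phosphatase gene, had the densest neighbourhoods, at 24.6 iOL peaks per Mb each; both were picked after their values were seen. The iOL peaks of Ephb3 lay at 10.7, 91.1, 125.4 and 154.8 kb from its TSS and those of Ptpn1 at -75.5, -71.8, -64.2 and 9.06 kb. Runx1, a transcription factor gene of blood and sensory neurons, had 4, at 20.8, 23.4, -96.4 and -186.0 kb, and Actg1, the gamma-actin gene, had 3, at 20.2, 24.3 and 81.1 kb.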
